A study of Mus musculus with 11 samples.

Results

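The 33 genes described here encode enzymes that split glucose to pyruvate and lactate and others that store and release glycogen, with regulatory subunits that act on them. The gene for pyruvate kinase, *Pkm*, is not among the 33. The set is a fixed list of names, matched to the symbol column of the array annotation. That column lists 21759 gene symbols over 28350 probe sets. The 33 genes have 76 probe sets, and each gene was read at its probe set with the highest mean signal. Transcripts were measured in the tibialis anterior (TA), a fast muscle of the lower leg, of 14-week-old male mice, each with its own Mouse Gene ST 1.1 array. The C57 group held 3 wild-type mice of strain C57/B10 that received no treatment. The *mdx* group held 4 untreated mice of the same background carrying the *mdx* mutation in *Dmd*, the gene for the membrane protein dystrophin. The treated group held 4 *mdx* mice dosed with Pip6e-PMO when 12 weeks old, as 1 injection of 12.5 mg/kg into a tail vein. Pip6e-PMO is an antisense oligomer joined to a cell-penetrating peptide, which makes the splicing machinery leave out the mutated *Dmd* exon. The treated mice carry the mutation in every cell, no *mdx* mouse received saline or a control oligomer, and the RNA came from cryosections of the middle of the muscle, with all its cell types.

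Glycolysis turns glucose into pyruvate in the cytosol, and muscle reduces part of that pyruvate to lactate so that the pathway can run when demand is high. Fast fibres hold a glycogen store, which phosphorylase breaks down on activation by phosphorylase kinase and which glycogen synthase and branching enzyme rebuild. Several steps are served by a muscle isozyme and by a broadly expressed isozyme from another gene, so that a change in the kinds of cells or fibres present can appear as a change in isozyme.

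All values below are log2 signals after the authors' normalization, and a difference is a difference of group means on the log2 scale with its standard error (SE) from a linear model fitted to all probe sets with limma. Of the 33 genes, 32 reached the minimum signal of 30 in at least 1 group and were tested. *Aldoc*, a brain-type aldolase, did not, with log2 signals of 4.32 to 4.88 over the 11 mice. A gene was called higher or lower at an adjusted p-value under 0.05. In all, 6 of the 32 tested genes (18.8%) were called between *mdx* and C57 muscle, against 12.0% of all 14494 probe sets tested. Another 6 calls (18.8%) were made between treated and *mdx* muscle, against 11.1% of all tested, and 10 (31.2%) between treated and C57 muscle, against 24.6%. The median difference over the 32 genes was 0.00 for *mdx* minus C57, 0.05 for treated minus *mdx* and 0.03 for treated minus C57, beside -0.01, 0.02 and 0.00 over all probe sets tested. The differences lay on both sides of 0, and 17 of the 32 were called in none of the comparisons. The 3 comparisons share groups, so a call in one is not independent of a call in another.

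**Figure D1:**
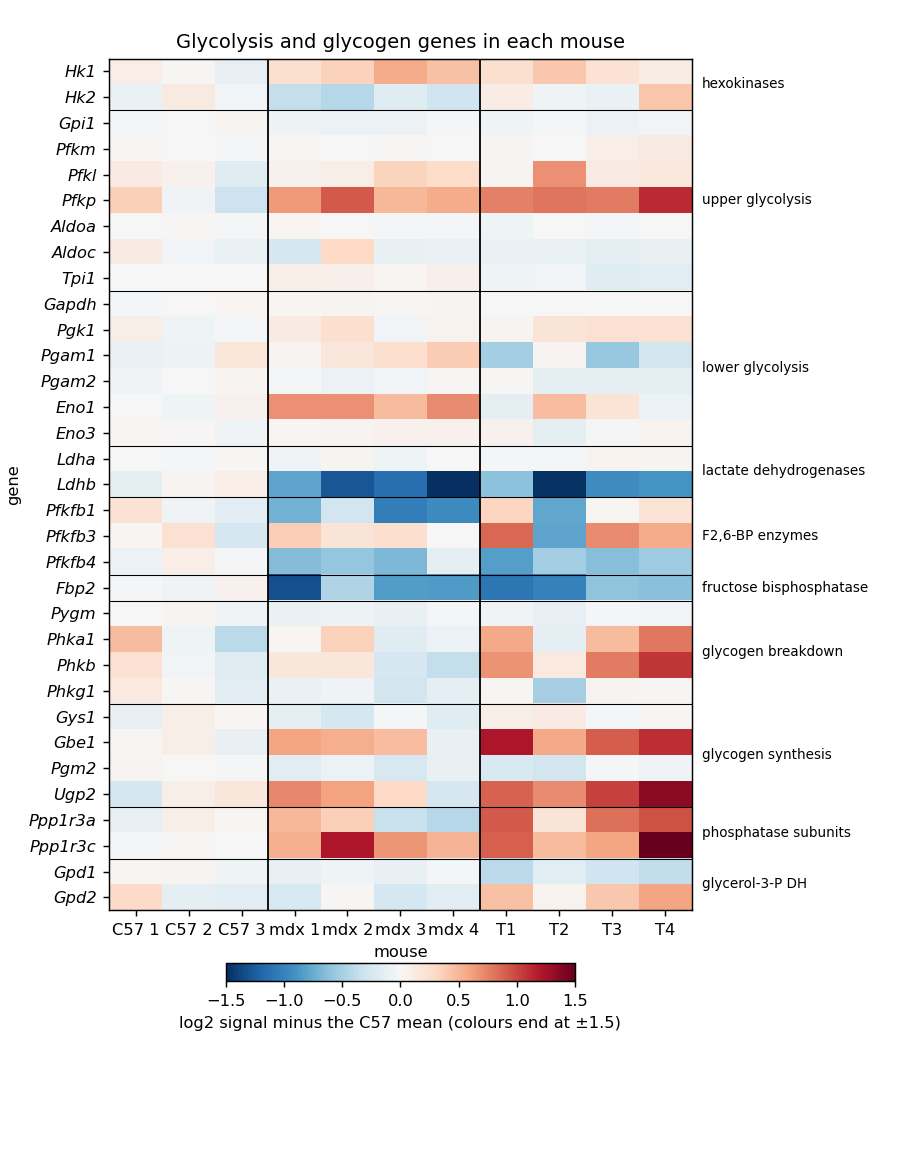
Log2 signal of each of the 33 genes (rows, grouped by role) in each of the 11 mice (columns; T1 to T4 are the treated mice), shown as the difference from the mean of the 3 C57 mice. Most core enzymes stay pale across all mice, while *Eno1* is red in the 4 *mdx* mice, *Ldhb* and *Fbp2* are blue in all *mdx* and treated mice, and *Gbe1*, *Ugp2* and *Ppp1r3c* are red in all treated mice.

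The mice differed in ways that bear on these values. The *Dmd* probe set ranged over 5.77 to 5.87 for C57, over 4.60 to 5.82 for *mdx* and over 5.51 to 6.34 for treated muscle, with no call in any comparison; it sums probes over the gene and does not check the mutation or the skipped exon. The 6 muscle fibre markers examined (*Ckm*, *Acta1*, *Myh4*, *Tnnt3*, *Ttn* and *Mylpf*) were present in every mouse at summed linear signals of 38476 to 41152, with none called. All 8 macrophage markers were higher in *mdx* than in C57 muscle, with summed signals that ran from 1042 to 1463 over the C57 mice, 2896 to 4587 over the *mdx* mice and 2248 to 3030 over those treated. All 6 markers of regenerating fibres were also higher in *mdx*, with sums of 1102 to 1633, 3447 to 5772 and 1739 to 3950. Treated replicate 2 gave the lowest treated value in 15 of the 32 genes (46.9%, beside 36.7% of all probe sets tested). It gave the highest in 9 (28.1%, beside 36.0%), and the counts that depend on it are given with and without it. For a treated sample named T2, the paper reports the lowest efficacy by exon-skipping PCR and mass spectrometry and the least mRNA restoration. Its western blot values for the treated samples were not significantly correlated with either measure, and the paper describes densitometry as less quantitative. Among the untreated *mdx* mice, replicate 3 gave the lowest value in 14 of the 32 genes (43.8%, beside 19.5% of all probe sets tested). In whole muscle, a lower share of cells of 1 type and less RNA in each such cell cannot be told apart.

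The enzymes with the brightest probe sets hardly moved. For 9 genes with a mean log2 signal of at least 12, the differences lay between -0.18 and 0.07 in all 3 comparisons and none was called. They were *Gpi1* (glucose 6-phosphate isomerase), *Pfkm* (muscle phosphofructokinase), *Aldoa* (aldolase A), *Tpi1* (triose phosphate isomerase), *Gapdh*, *Pgam2* and *Eno3* (the muscle forms of phosphoglycerate mutase and enolase), *Ldha* (the main muscle lactate dehydrogenase subunit) and *Pygm* (muscle glycogen phosphorylase). The 95% intervals for *mdx* minus C57 ran from -0.25 to 0.24 at their widest, and those for treated minus *mdx* from -0.34 to 0.22. *Tpi1* gave the largest of these differences. C57 mice lay at 12.40 to 12.41, *mdx* mice at 12.44 to 12.50 and treated mice at 12.23 to 12.37, so the 3 groups did not overlap, yet treated minus *mdx* was -0.18 with an adjusted p of 0.122. Of all 220 probe sets this bright, 1.36% were called for *mdx* minus C57 and 1.82% for treated minus *mdx*. The array maxima differed by group, at 13.63 to 13.66 for *mdx*, 13.81 to 13.91 for C57 and 13.82 to 13.86 for treated arrays. Median intensities were 27.5 to 27.7 in the C57 arrays and 27.9 to 28.6 in the others. How much this difference in scale, or signal saturation, alters differences near the maxima was not tested. The probe set read for *Gapdh* stood at 13.56 to 13.63 in all 11 mice, and its 35 probe sets, each marked as prone to cross-hybridization (crosshyb type 3), differed between groups by -0.06 to 0.04. *Pgk1*, phosphoglycerate kinase, was also type 3 and read 11.62 to 11.94, with no call.

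Between *mdx* and C57 muscle the calls fell on isozymes and regulators away from these bright enzymes: *Hk1*, *Pfkp* and *Eno1* were higher, and *Ldhb*, *Pfkfb4* and *Fbp2* were lower. The 3 higher calls compare with 7.06% higher and the 3 lower calls with 4.96% lower among all probe sets tested. The groups did not overlap for 11 of the 32 genes (34.4%, against 24.3% of all tested), which besides these 6 were *Hk2*, *Tpi1*, *Pfkfb1*, *Pgm2* and *Ppp1r3c*. Without C57 replicate 2, or without C57 replicate 3, the calls numbered 3.

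To show the DNA in front of genes that moved, the promoters of *Pfkp* (higher in *mdx*), *Ldhb* and *Fbp2* (lower in *mdx*) and *Pgam1* (lower after treatment) are printed here; each has a single listed start. The sequences are RefSeq's for build GRCm38.p6, 300 bases from 250 before the start to 50 from it on, on the gene's own strand. Of the 33 genes, 32 matched an entry, with 48 promoters in all. Capitals mark the letters searched on both strands: CACGTG, known as an E-box; ACGTG and GCGTG, the cores of hypoxia response elements; and CTA and TAG set 4 bases apart, a pattern looser than the MEF2 site of muscle genes, which needs A or T at the bases between. Every CACGTG also holds an ACGTG on each strand.
Pfkp (chr13:6648722-6649021, minus strand): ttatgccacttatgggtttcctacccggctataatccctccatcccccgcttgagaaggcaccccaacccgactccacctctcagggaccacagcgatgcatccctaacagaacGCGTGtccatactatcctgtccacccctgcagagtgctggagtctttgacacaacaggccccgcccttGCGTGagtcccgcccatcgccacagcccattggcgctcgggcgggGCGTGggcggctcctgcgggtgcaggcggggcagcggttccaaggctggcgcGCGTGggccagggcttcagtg
Ldhb (chr6:142507908-142508207, minus strand): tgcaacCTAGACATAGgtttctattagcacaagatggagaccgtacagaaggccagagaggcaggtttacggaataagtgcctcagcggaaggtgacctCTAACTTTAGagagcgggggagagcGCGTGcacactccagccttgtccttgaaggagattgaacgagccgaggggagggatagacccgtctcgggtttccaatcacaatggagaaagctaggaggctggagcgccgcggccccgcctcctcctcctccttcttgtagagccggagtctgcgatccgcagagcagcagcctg
Fbp2 (chr13:62858351-62858650, minus strand): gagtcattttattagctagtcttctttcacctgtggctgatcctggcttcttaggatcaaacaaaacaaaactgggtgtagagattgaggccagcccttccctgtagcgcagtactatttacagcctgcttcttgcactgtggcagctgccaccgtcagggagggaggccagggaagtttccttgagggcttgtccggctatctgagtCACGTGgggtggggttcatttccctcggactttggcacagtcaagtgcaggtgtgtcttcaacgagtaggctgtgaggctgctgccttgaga
Pgam1 (chr19:41911621-41911920, plus strand): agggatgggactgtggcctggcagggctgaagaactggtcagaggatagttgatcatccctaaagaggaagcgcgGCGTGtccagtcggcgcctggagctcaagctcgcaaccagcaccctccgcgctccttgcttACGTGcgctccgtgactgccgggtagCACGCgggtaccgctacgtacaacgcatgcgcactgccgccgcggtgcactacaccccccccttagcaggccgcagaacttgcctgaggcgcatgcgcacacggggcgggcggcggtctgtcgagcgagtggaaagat

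*Pfkp* held 4 GCGTG, starting at -136, -68, -23 and +30 from the start. *Ldhb* held 2 of the CTA and TAG patterns, at -244 and -151, of which 0 had only A or T between, and 1 GCGTG at -126. *Fbp2* held the CACGTG at -42. *Pgam1* held 1 ACGTG, at -114, and 2 GCGTG, at -175 and -88. Over the 48 promoters, CACGTG was present in 10.4%, ACGTG in 39.6%, GCGTG in 50% and the CTA and TAG pattern in 6.25%. Over all 32851 promoters of the table it was 7.15%, 19.6%, 32.4% and 3.69%. Some of the 48 windows overlap, as for *Eno1*, *Aldoa* and *Pfkm*, so the same site can count more than once. The windows of the untested *Aldoc* are included, and the 2 sets of promoters were not matched for GC content. A match describes letters in this window and not binding.

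*Eno1* encodes alpha-enolase, the form found in most cells and in muscle precursors. It read 10.55, 10.47 and 10.60 in the C57 mice, 11.23, 11.23, 11.02 and 11.25 in the *mdx* mice and 10.39, 11, 10.75 and 10.45 in the treated mice. Every *mdx* mouse lay above every other mouse. The *mdx* minus C57 difference was 0.64 (SE 0.14, adjusted p = 0.00992), or 1.56-fold, and treated minus *mdx* was -0.54 (SE 0.13, adjusted p = 0.0266), while treated and C57 differed by 0.11 (SE 0.14, adjusted p = 0.589). Of the treated mice, replicate 2 lay closest to the *mdx* group, and without it treated minus *mdx* was -0.65. The highest-signal probe set is type 3, and all 3 probe sets of *Eno1*, 1 of them unique, gave 0.63 to 0.69 for *mdx* minus C57 and -0.59 to -0.54 for treated minus *mdx*.

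*Hk1* and *Hk2* encode the hexokinases that trap glucose in the cell, and *Hk2* is the insulin-responsive muscle form. *Hk1* read 6.83, 6.75 and 6.61 in C57, 6.97, 7.08, 7.29 and 7.17 in *mdx* and 6.97, 7.13, 6.95 and 6.84 in treated mice. All *mdx* mice were above all C57 mice, by 0.40 on average (SE 0.11, adjusted p = 0.0306); this call was lost on leaving out any of C57 replicates 2 and 3 and *mdx* replicates 2, 3 and 4, at differences of 0.34 to 0.45. *Hk2* was placed the other way, at 9.94, 10.17 and 10 in C57, 9.68, 9.61, 9.85 and 9.74 in *mdx* and 10.15, 9.97, 9.94 and 10.45 in treated mice. Its *mdx* group lay below both others without overlap. The *mdx* minus C57 difference of -0.32 (SE 0.13) gave an adjusted p of 0.141, and the treated minus *mdx* difference of 0.41 (SE 0.12) was called at an adjusted p of 0.0459. The *Hk2* call did not hold on leaving out any mouse other than treated replicate 2 (differences 0.30 to 0.47).

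*Pfkp* encodes the platelet-type phosphofructokinase. It read 5.67, 5.26 and 5.0 in C57, 5.95, 6.23, 5.81 and 5.87 in *mdx* and 6.07, 6.11, 6.09 and 6.43 in treated mice. The C57 mice stood below all others, by 0.66 against *mdx* (SE 0.16, adjusted p = 0.0195) and by 0.86 against treated mice (SE 0.16, adjusted p = 0.00332). Treated and *mdx* mice overlapped and differed by 0.21 (SE 0.15, adjusted p = 0.356). Leaving out C57 replicate 2, C57 replicate 3 or *mdx* replicate 2 ended the *mdx* call, and no single mouse ended the treated call. The liver-type gene *Pfkl*, at 5.99 to 6.85 over all mice, was not called.

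*Eno1*, *Hk1* and *Pfkp* were higher in *mdx* muscle together with the macrophage and regenerating fibre markers above, all of which reached the minimum signal. Of the 8 fibroblast and matrix markers, 4 were higher in *mdx* (*Col3a1*, *Postn*, *Fbn1* and *Lum*) and 6 in treated than in C57 muscle, with summed signals that ran from 4846 to 6638 over the C57 mice, 7263 to 9007 over the *mdx* mice and 6839 to 11429 over those treated. The part of these cells in the 3 calls was not tested.

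*Ldhb* encodes the heart-type lactate dehydrogenase subunit, which oxidative fibres use. It read 8.99, 9.17 and 9.23 in C57, 8.34, 7.85, 8.00 and 7.22 in *mdx* and 8.51, 7.65, 8.19 and 8.23 in treated mice. All *mdx* and treated mice lay below all C57 mice, at -1.28 for *mdx* (SE 0.24, adjusted p = 0.00484), or 0.413 of the C57 signal, and -0.98 for treated (SE 0.24, adjusted p = 0.013). Treated minus *mdx* was 0.29 (SE 0.22, adjusted p = 0.39). Its probe set is type 3, and the unique one gave -1.38 for *mdx* minus C57. Without C57 replicate 3 the treated minus C57 difference no longer passed the test. *Myl3*, the light chain of slow fibres and heart, stood lower in *mdx* as well, by -1.67 (adjusted p = 0.000506), at 9.12 to 9.87 in C57 and 7.63 to 8.38 in *mdx* mice, and rose by 0.81 in treated against *mdx* muscle (adjusted p = 0.0297). Of the 8 fibre-type markers tested, *Myl3* was the 1 called lower in *mdx* than in C57 muscle. The 2 called higher are also genes of slow fibres, *Tnni1* by 2.47 (adjusted p = 0.0132) and *Atp2a2* by 0.76 (adjusted p = 0.000408), against the direction of *Ldhb*. Another of these markers, *Myh2*, lay in the direction of *Ldhb* without overlap but was not called (adjusted p = 0.0574). It read 8.98 to 9.63 in C57 and 7.79 to 8.71 in *mdx* mice. Among the treated mice, *Tnni1* was highest in replicate 2. So were the regenerating fibre markers *Myh3*, *Myog*, *Myl4* and *Tmem8c*, but not *Myh8* and *Ncam1*. Of the 5 peripheral nerve markers tested, 3 were lower in *mdx*, with sums of 1668 to 2610 over the C57 mice, 1265 to 1615 over the *mdx* mice and 1198 to 1436 over those treated. Much of these sums came from *Pmp22*, which was not called, at mean linear signals of 1075 in C57 and 1083 in *mdx* mice. The part of fibre types and nerve in the lower calls was not tested.

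*Fbp2* encodes muscle fructose bisphosphatase, which runs the phosphofructokinase step backwards. It read 8.47, 8.43 and 8.55 in C57, 7.17, 8.03, 7.65 and 7.63 in *mdx* and 7.40, 7.47, 7.88 and 7.86 in treated mice. The C57 mice lay within a narrow band above all others. The differences were -0.86 for *mdx* (SE 0.18, adjusted p = 0.0086) and -0.83 for treated mice (SE 0.18, adjusted p = 0.00777) against C57, and treated minus *mdx* was 0.03 with a 95% interval of -0.33 to 0.40.

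The enzymes that make and remove fructose 2,6-bisphosphate, the activator of phosphofructokinase, gave 1 called gene, *Pfkfb4*, of 3. *Pfkfb4* read 7.80, 7.98 and 7.87 in C57, 7.23, 7.30, 7.21 and 7.74 in *mdx* and 7.06, 7.36, 7.25 and 7.35 in treated mice. It was lower in *mdx* by -0.51 (SE 0.13, adjusted p = 0.0273) and in treated mice by -0.63 (SE 0.13, adjusted p = 0.00699) against C57. Within *mdx*, replicate 4 stood near the C57 range, and leaving out *mdx* replicate 1, 2 or 3 or C57 replicate 2 or 3 ended the *mdx* call. *Pfkfb1*, the liver and muscle form, read 8.98, 8.71 and 8.60 in C57, 8.06, 8.48, 7.73 and 7.81 in *mdx* and 9.09, 7.98, 8.79 and 8.97 in treated mice. It was below C57 in every *mdx* mouse (-0.74, SE 0.25, adjusted p = 0.0766), while 3 treated mice lay in or above the C57 range and replicate 2 in the *mdx* range. Treated minus *mdx* was 0.69 (SE 0.23, adjusted p = 0.0707), and 0.93 without treated replicate 2 (adjusted p = 0.00475). *Pfkfb3*, the inducible form, read 9.71 to 10.19 in C57 and 9.97 to 10.34 in *mdx*, and 10.83, 9.18, 10.68 and 10.52 in treated mice. Its treated minus *mdx* difference was 0.13 (adjusted p = 0.796) with all 4 treated mice and 0.50 (adjusted p = 0.0176) without replicate 2, the lowest mouse of the 11.

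**Figure D2:**
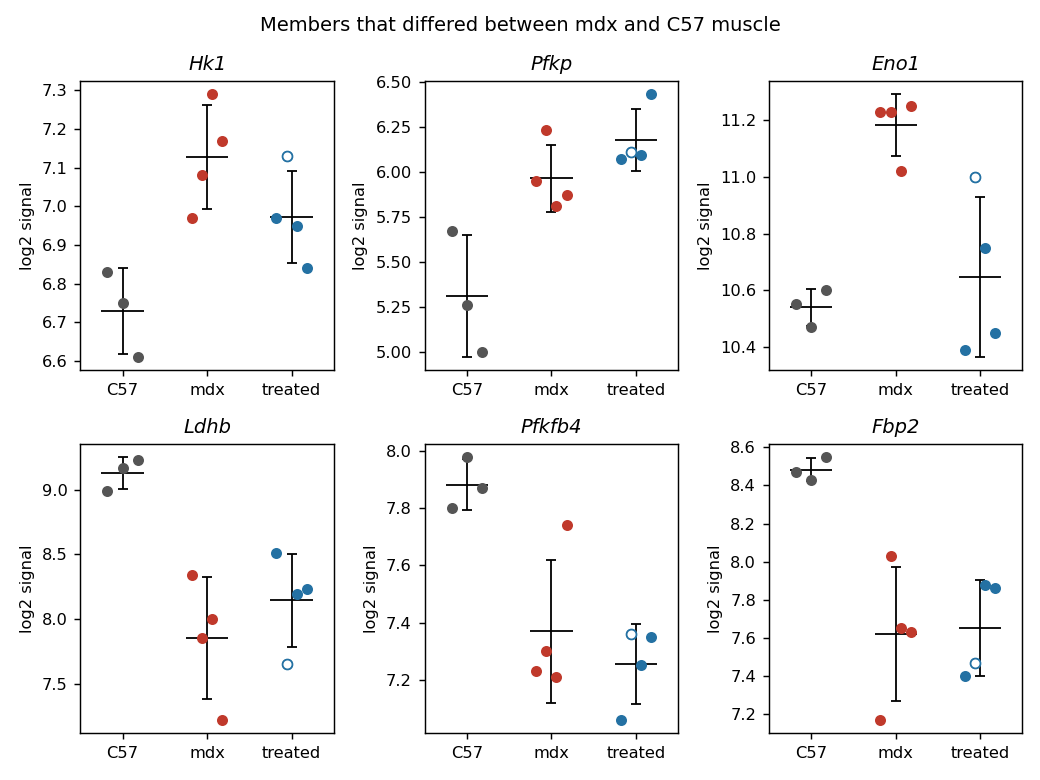
Log2 signal (vertical axis) of the 6 genes called between *mdx* and C57 muscle, 1 point per mouse, with group mean and SD as bars; the open circle is treated replicate 2. The *mdx* points lie wholly above the C57 points for *Hk1*, *Pfkp* and *Eno1* and wholly below them for *Ldhb*, *Pfkfb4* and *Fbp2*, and only for *Eno1* do treated points reach into or past the C57 range.

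After Pip6e-PMO, *Hk2*, *Phkb*, *Gbe1* and *Gpd2* were higher and *Pgam1* and *Eno1* lower than in untreated *mdx* muscle. The 4 higher calls compare with 7.26% higher and the 2 lower calls with 3.88% lower among all probe sets tested. The groups did not overlap for 7 of the 32 genes (21.9%, against 16.0% of all tested). Without treated replicate 2 the calls numbered 12 of 32, at 28.3% of all tested, and added *Pfkfb1*, *Pfkfb3*, *Phka1*, *Ugp2*, *Ppp1r3a* and *Gpd1*. Without *mdx* replicate 4, or without treated replicate 1, 3 or 4, no gene of the 32 was called in limma, although 10 to 11 still had an unadjusted p under 0.05, as 12 did with all mice; the same omissions took all probe sets called from 1615 to between 269 and 490. Without *mdx* replicate 2 the calls numbered 2, and without *mdx* replicate 3 only 1. Beside the higher genes, 2 of the 5 endothelial markers were higher in treated than in *mdx* muscle, *Pecam1* by 0.78 (adjusted p = 0.0277) and *Tek* by 0.97 (adjusted p = 0.0332), with none lower. Their summed signals ran from 1456 to 1999 over the C57 mice, 1691 to 2079 over the *mdx* mice and 1870 to 2753 over those treated, and treated replicate 2 had the lowest treated value of both *Pecam1* and *Tek*. The fibre-type marker *Myh2* was higher by 1.45 (adjusted p = 0.0158), again lowest in treated replicate 2 of the treated mice. The part of endothelium and fibre type in these calls was not tested.

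Of the 4 glycogen synthesis genes, *Gbe1* and *Ugp2* were called higher in treated than in C57 muscle and *Gys1* and *Pgm2* were not. Both phosphatase subunit genes were also called higher. Of all probe sets tested, 15.6% were called higher in that comparison. *Gbe1*, the glycogen branching enzyme, read 7.78, 7.86 and 7.66 in C57, 8.36, 8.31, 8.23 and 7.66 in *mdx* and 8.98, 8.34, 8.67 and 8.87 in treated mice. The treated mice were all above the C57 mice, by 0.95 (SE 0.18, adjusted p = 0.00407), or 1.93-fold. Against *mdx*, from which replicate 2 was not separate, the difference was 0.57 (SE 0.17, adjusted p = 0.0477), a call that did not hold on leaving out any mouse other than treated replicate 2 (differences 0.41 to 0.70). *Ugp2* encodes the enzyme that makes UDP-glucose, the donor for glycogen. It read 8.23, 8.59 and 8.67 in C57, 9.22, 9.10, 8.79 and 8.24 in *mdx* and 9.38, 9.20, 9.52 and 9.85 in treated mice. Treated exceeded C57 muscle by 0.99 (SE 0.22, adjusted p = 0.00879), or 1.99-fold, and *mdx* muscle by 0.65 (SE 0.21, adjusted p = 0.0606). For *Gbe1* and *Ugp2*, *mdx* replicate 4 stood at the C57 level, below the other *mdx* mice.

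*Ppp1r3a* and *Ppp1r3c* encode subunits that bring protein phosphatase 1 to glycogen, where it activates glycogen synthase. *Ppp1r3a* read 7.95, 8.17 and 8.11 in C57, 8.58, 8.43, 7.74 and 7.65 in *mdx* and 9.0, 8.27, 8.90 and 9.03 in treated mice. The *mdx* mice split to either side of the C57 mice, and treated replicate 2 fell within their span. Treated minus C57 was 0.72 (SE 0.24, adjusted p = 0.0458) and treated minus *mdx* 0.70 (SE 0.22, adjusted p = 0.0611), or 0.88 without treated replicate 2 (adjusted p = 0.0115). The treated minus C57 call of *Ppp1r3a* was lost with arrays centred on their median and on leaving out any C57 mouse or treated replicate 1, 3 or 4. *Ppp1r3c* read 9.0, 9.03 and 9.01 in C57, 9.56, 10.23, 9.68 and 9.52 in *mdx* and 9.91, 9.49, 9.61 and 10.60 in treated mice. Every *mdx* and treated mouse was above every C57 mouse, by 0.73 for *mdx* (SE 0.24, adjusted p = 0.0686) and 0.89 for treated (SE 0.24, adjusted p = 0.0198); the latter was lost without C57 replicate 2 or 3. *Gys1*, muscle glycogen synthase itself, read 11.63 to 12.02 and was not called. Nor was *Pgm2*, at 11.62 to 11.93, a phosphoglucomutase whose current symbol is *Pgm1*.

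On the side of glycogen breakdown, *Phkb*, the beta subunit of phosphorylase kinase, read 9.37, 9.10 and 8.96 in C57, 9.31, 9.31, 8.89 and 8.79 in *mdx* and 9.82, 9.29, 9.92 and 10.21 in treated mice. Of the treated mice, 3 stood above all C57 and *mdx* mice and replicate 2 lay among them. The treated minus *mdx* difference was 0.73 (SE 0.19, adjusted p = 0.0328) and treated minus C57 was 0.67 (SE 0.20, adjusted p = 0.0344), while *mdx* and C57 differed by -0.07 (SE 0.20). Treated minus *mdx* lost its call without *mdx* replicate 3 or 4 or treated replicate 1, 3 or 4, and treated minus C57 without C57 replicate 2 or 3 or those same treated mice. The alpha subunit gene *Phka1* differed by 0.40 (SE 0.22, adjusted p = 0.234) from *mdx*, and by 0.59 without treated replicate 2 (adjusted p = 0.0386). The catalytic gamma subunit gene *Phkg1* differed by 0.04 (SE 0.13).

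*Pgam1*, the phosphoglycerate mutase of most tissues, read 8.37, 8.40 and 8.65 in C57, 8.52, 8.64, 8.73 and 8.85 in *mdx* and 7.96, 8.51, 7.90 and 8.20 in treated mice. Each treated mouse was below each *mdx* mouse, replicate 2 by 0.01 only. Treated minus *mdx* was -0.54 (SE 0.14, adjusted p = 0.0304) and -0.67 without replicate 2, while treated minus C57 was -0.33 (SE 0.15, adjusted p = 0.116). None of the 3 probe sets of *Pgam1* is unique, so part of its signal may come from related sequences. Its call ended without *mdx* replicate 2, 3 or 4 or treated replicate 1, 3 or 4, and that of *Eno1* without *mdx* replicate 2 or 4 or the same treated mice. Of the macrophage markers, 3 of 8 were lower in treated than in *mdx* muscle (*Cd68*, *Tyrobp* and *Ctss*), as was 1 of 6 regenerating fibre markers. So were 4 of the 5 adipocyte markers tested (*Adipoq*, *Plin1*, *Cfd* and *Cidec*), with differences of -1.94 to -1.38. The adipocyte sums ran from 1108 to 1856 over the *mdx* mice and 1137 to 1203 over those treated. Much of them came from *Fabp4* (mean linear signals of 763 in *mdx* and 917 in treated mice), which differed by 0.26 and was not called. The part of these cells in the *Pgam1* and *Eno1* calls was not tested.

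The 2 glycerol 3-phosphate dehydrogenases shuttle reducing equivalents from the cytosol to mitochondria, and in no comparison were both called. *Gpd2*, the mitochondrial enzyme, read 9.59, 9.17 and 9.15 in C57, 9.07, 9.32, 9.04 and 9.15 in *mdx* and 9.74, 9.36, 9.71 and 9.90 in treated mice. All treated mice were above all *mdx* mice, by 0.53 (SE 0.13, adjusted p = 0.0311). This call ended without *mdx* replicate 1, 3 or 4 or treated replicate 1, 3 or 4, and in the mean over both *Gpd2* probe sets, of which the second was below the minimum signal. *Gpd1*, the cytosolic enzyme, read 11.72, 11.73 and 11.63 in C57, 11.58, 11.63, 11.58 and 11.67 in *mdx* and 11.30, 11.54, 11.39 and 11.32 in treated mice. The treated mice were below all others, by -0.31 against C57 (SE 0.09, adjusted p = 0.0267) and -0.23 against *mdx* (SE 0.08, adjusted p = 0.084). The treated minus C57 call of *Gpd1* ended without C57 replicate 1 or 2 or treated replicate 1, 3 or 4.

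**Figure D3:**
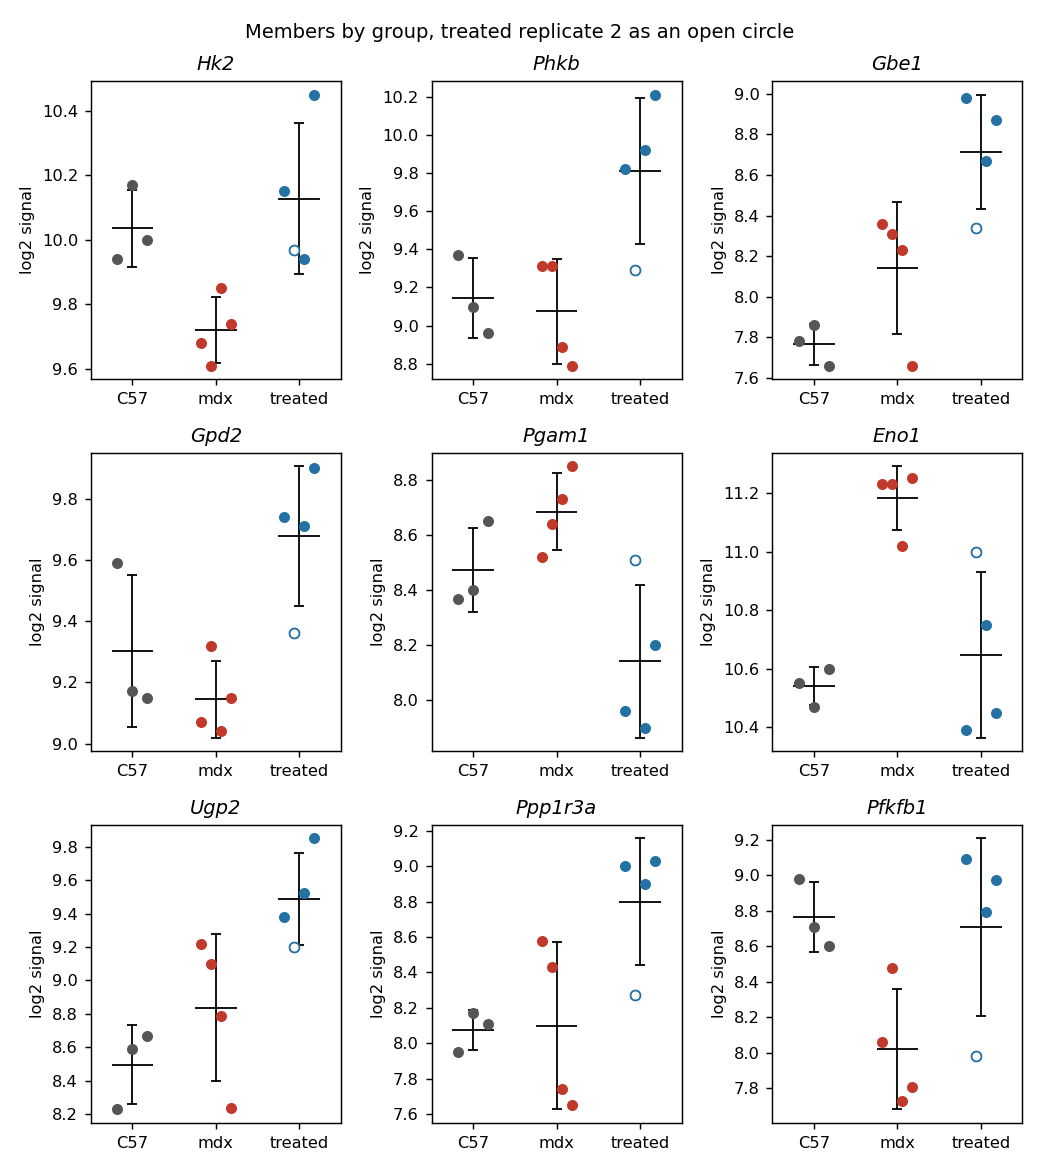
Log2 signal (vertical axis) by group for the 6 genes called between treated and *mdx* muscle and for *Ugp2*, *Ppp1r3a* and *Pfkfb1*, 1 point per mouse, with group mean and SD as bars. Treated replicate 2, the open circle, is the treated mouse nearest to the *mdx* mean for *Phkb*, *Gbe1*, *Gpd2*, *Pgam1*, *Eno1*, *Ugp2*, *Ppp1r3a* and *Pfkfb1*.

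**Figure D4:**
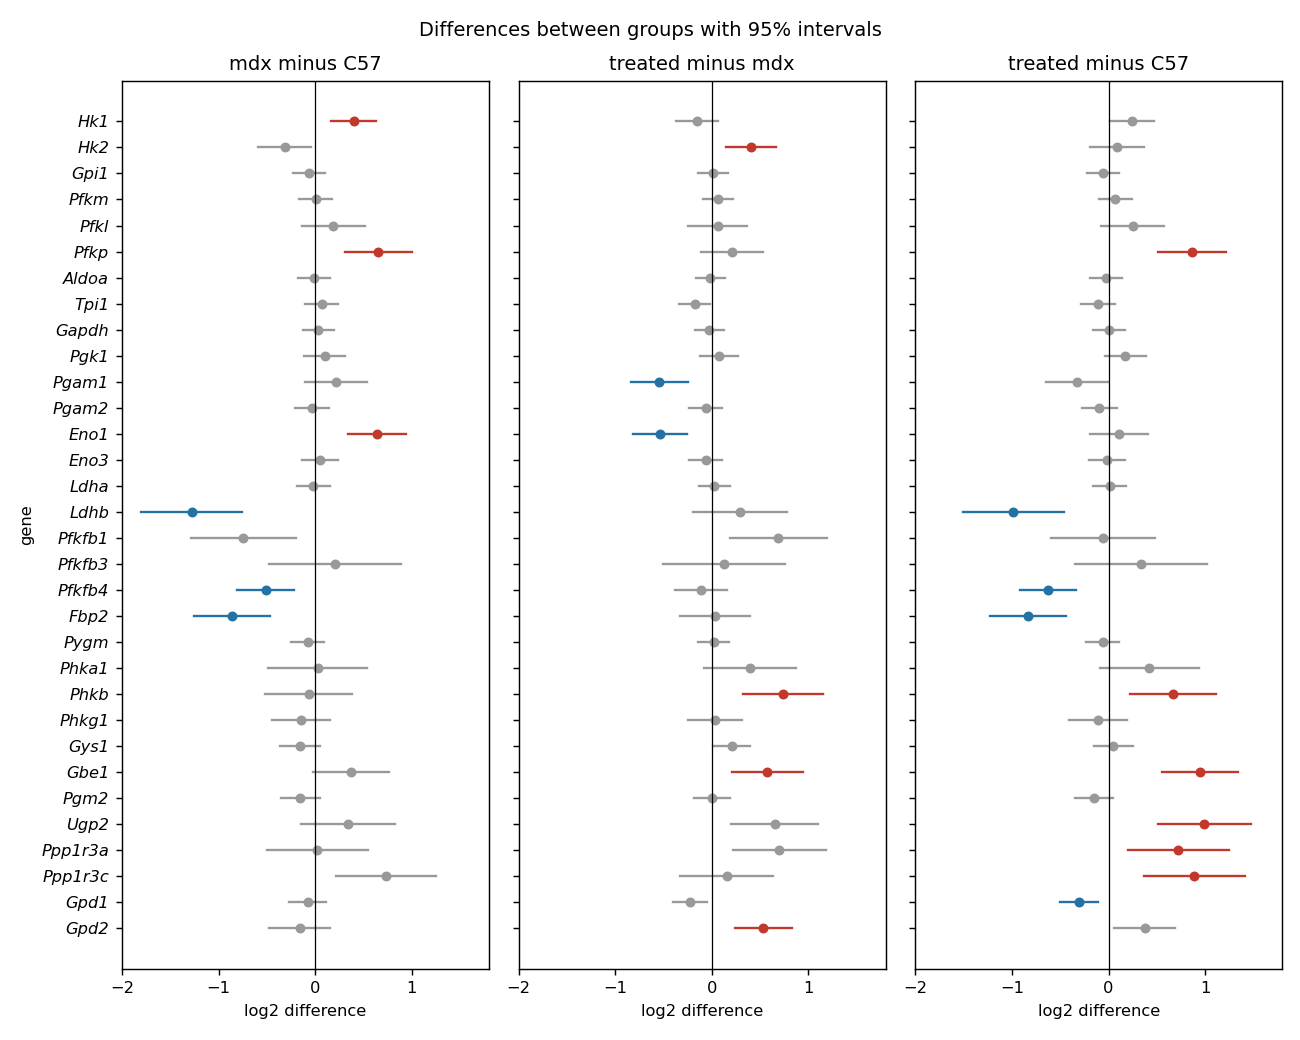
Log2 difference (horizontal axis) for each of the 32 tested genes in the 3 comparisons, with 95% intervals as lines; red marks genes called higher, blue genes called lower and grey genes not called. Differences run from -1.28 (*Ldhb*, *mdx* minus C57) to 0.99 (*Ugp2*, treated minus C57).

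Treated against C57 muscle, 6 of the 32 genes were higher (*Pfkp*, *Phkb*, *Gbe1*, *Ugp2*, *Ppp1r3a* and *Ppp1r3c*), against 15.6% of all probe sets tested, and 4 were lower (*Ldhb*, *Pfkfb4*, *Fbp2* and *Gpd1*), against 8.96%. The groups did not overlap for 11 genes (34.4%, against 32.0% of all tested). Without treated replicate 2 the calls numbered 14, at 34.0% of all tested, and added *Pgam1*, *Pfkfb3*, *Phka1* and *Gpd2*. They numbered 6 without C57 replicate 2 or C57 replicate 3.

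The calls were also counted by signal height, in bins set after the values were seen. Of the 5 tested genes with a mean log2 signal under 8, 4 were called for *mdx* minus C57 and 0 for treated minus *mdx*, beside 12.5% and 11.8% of all 10067 probe sets in that range. From 8 to 10 it was 1 of 10 and 5 of 10, beside 12.4% and 10.5% of 3063. From 10 to 12 it was 1 of 8 in both comparisons, beside 8.74% and 9.09% of 1144. At 12 and above it was 0 of 9 in both, beside 1.36% and 1.82% of 220.

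In a ratio of 2 isozymes within the same array, a constant shift of that array on the log2 scale cancels. A scaling that acts differently at low and high signal does not cancel, and the paired genes often differ in signal height. Such pairs were compared by two-sided exact permutation tests over mice, 7 pairs in each comparison, where 3 against 4 mice cannot give a p below 0.0571 and 4 against 4 none below 0.0286. *Hk1* relative to *Hk2* differed by 0.71 (SE 0.11) between *mdx* and C57 without overlap (exact p = 0.0571, adjusted 0.1), the smallest p possible. From *mdx* to treated muscle the same ratio differed by -0.56 (SE 0.17, exact p = 0.0286, adjusted 0.1). Relative to the muscle form, *Eno1* differed by 0.59 and *Pfkp* by 0.65 between *mdx* and C57, and *Ldhb* relative to *Ldha* by -1.26, again with no overlap (exact p = 0.0571 for each, adjusted 0.1). The muscle forms are among the bright probe sets that hardly moved, so these 3 ratios restate the differences of *Eno1*, *Pfkp* and *Ldhb* alone (0.64, 0.66 and -1.28). *Gpd2* relative to *Gpd1* differed by 0.76 (SE 0.17) between treated and *mdx* mice (exact p = 0.0286, adjusted 0.1). No pair passed an adjusted threshold of 0.05, which no adjusted value here could reach for *mdx* minus C57.

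**Figure D5:**
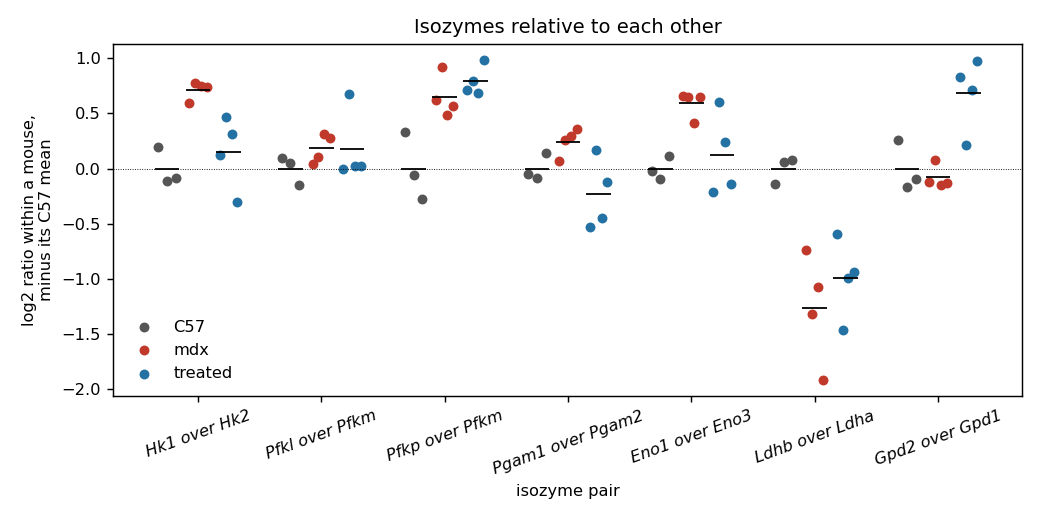
Log2 ratio of 2 isozymes within each mouse (vertical axis), as the difference from the mean of the 3 C57 mice; points are mice and lines group means. The *mdx* points of *Hk1* over *Hk2*, *Pfkp* over *Pfkm* and *Eno1* over *Eno3* lie above the C57 points, those of *Ldhb* over *Ldha* lie below, and the treated points of *Gpd2* over *Gpd1* lie above the *mdx* points.

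Around these enzymes, 74 further genes of the pathways were examined, of which 61 were tested. Between *mdx* and C57 muscle 7 of 61 (11.5%) were called, close to the 12.0% of all probe sets. *Stbd1*, which tethers glycogen to membranes, read 5.74, 5.60 and 5.54 in C57, 6.52, 6.78, 6.69 and 6.40 in *mdx* and 6.18, 6.65, 6.35 and 6.41 in treated mice. Its *mdx* mean exceeded that of C57 by 0.97 (SE 0.13, adjusted p = 0.000542), and the C57 mice stood apart below both other groups. The phosphoglucomutase family genes *Pgm1* (current symbol *Pgm2*, 0.43) and *Pgm5* (0.54) and the pyruvate dehydrogenase kinase gene *Pdk3* (0.66) were also higher. Lower were *Slc2a3*, the GLUT3 glucose transporter (-0.91, SE 0.20, adjusted p = 0.00946), *Tigar*, a phosphatase acting on fructose 2,6-bisphosphate (-0.58), and *Pgm2l1* (-0.36), which makes glucose 1,6-bisphosphate. Without treated replicate 2, which leaves this comparison its mice but changes the shared estimate of spread, 13 of the 61 were called. *Pkm*, pyruvate kinase, the last step of glycolysis, stood at 12.71 to 12.86 in all mice and was not called.

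Between treated and *mdx* muscle 11 of the 61 (18%, against 11.1% of all tested) were called. Of them, 7 belong to the 14 genes of the pyruvate dehydrogenase complex, its regulators and the mitochondrial pyruvate carrier. Through these, pyruvate enters mitochondria's oxidative pathway. All 7 were higher. For *mdx* minus C57, 13 of the 14 differences were below 0, with a median of -0.22 and 1 call, which was higher. For treated minus C57, 2 of the 14 were called higher and 1 lower. Of the 7, *Pdha1*, the catalytic subunit of the complex, read 10.20, 10.09 and 10.34 in C57, 10.59, 10.33, 10.07 and 9.75 in *mdx* and 10.82, 10.72, 10.87 and 10.95 in treated mice, a difference of 0.66 from *mdx* (SE 0.15, adjusted p = 0.0247). Every treated mouse, replicate 2 included, was above every *mdx* and C57 mouse. The others were *Pdhb* (0.44), *Dlat* (0.36), *Pdhx* (0.65), the kinase gene *Pdk1* (0.65) and, on the phosphatase side, *Pdp1* (0.55) and its regulator *Pdpr* (0.54). *Dld*, another subunit of the complex, differed by 0.68 with an adjusted p of 0.0533, and the mitochondrial pyruvate carrier genes *Mpc1* (0.00) and *Mpc2* (0.02) were not called; *Mpc1* in treated replicate 2 was 9.83, below 11.07 to 11.36 in the other treated mice. Of the remaining calls, *Slc16a1*, the lactate transporter MCT1 (0.56), *Pgm3* (0.56) and *Pgm2l1* (0.47) were higher, and *Pgd*, an enzyme of the pentose phosphate pathway (-0.54), was lower. Between 1 and 3 of the 61 were called without *mdx* replicate 3 or 4 or without treated replicate 1, 3 or 4, and 7 without *mdx* replicate 2. On leaving out *mdx* replicate 4 or treated replicate 1, 3 or 4, calls over all 14494 probe sets numbered 269 to 490. Without treated replicate 2, 19 of the 61 were called, beside 28.3% of all tested.

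Treated against C57 muscle, 14 of the 61 (23.0%, against 24.6% of all tested) were called. *Pgm5* (0.74), *Pgm1* (0.76), *Stbd1* (0.77), *Pdk3* (0.77), *Pgm3* (0.65), *Pdha1* (0.63), *Slc16a1* (0.46) and *Rpe* (0.36) were higher. *Tigar* (-0.61), *Slc2a3* (-0.91), *Pcx* (-0.37), pyruvate carboxylase, and *Slc37a4* (-0.55), the glucose 6-phosphate transporter, were among the 6 lower genes. The calls numbered 8 without C57 replicate 2. They numbered 9 without treated replicate 4, where 2428 of all 14494 probe sets were called. The main muscle glucose transporter gene *Slc2a4* stood at 11.52 to 11.93 and was not called in any comparison.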

How the data were processed

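Whole-muscle RNA from 3 C57, 4 *mdx* and 4 treated mice was hybridised to 11 arrays. The authors corrected background by RMA in the Affymetrix Expression Console, applied sketch-quantile normalization, summarised probes by median polish and deposited the intensities on a linear scale; versions and the genome build are not given in the sources used here. Intensities were turned to log2 and fitted in limma 3.58.1 (R 4.3.3), with a mean per group, over all 11 arrays and the 14494 of 28350 probe sets with a group mean of at least 30 in at least 1 group. P-values are two-sided with Benjamini-Hochberg adjustment over all of these, called under 0.05 with no minimum fold. The methods state a t-test, which was an alternative here. The fit was tested on simulated data. Each mouse is a replicate, and the number of arrays limits the precision. All 33 members could be named; of the 74 further pathway genes, those called, up to 12 a comparison. Members, gene lists and markers were chosen with earlier results of these data known. Alternatives changed the test, fit, filter, scaling, probe sets, call rule, replicate block and mice included. A fit on unique probe sets and the isozyme tests were added after the data were seen. Same-numbered mice did not deviate together (correlations of -0.297 to 0.153), so the numbers were not taken as pairs. Further software was Python 3.11.15, pandas 2.3.3, SciPy 1.17.1 and matplotlib 3.10.9.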

Additional observations from a re-analysis of the deposited data

Results flagged for a closer look

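Within the *mdx* and treated groups of 4, the highest or lowest mouse of each of the 32 tested genes was set against the other 3, and in 8 of 64 groups it stood further off than a Dixon test at 95% allows; chance gives about 1 in 20 groups. *Pfkp* was 6.43 in treated replicate 4, with the other treated mice at 6.07 to 6.11. *Eno1* was 11.02 in *mdx* replicate 3, with the others at 11.23 to 11.25, still above every C57 mouse. *Pfkfb4* was 7.74 in *mdx* replicate 4, with the others at 7.21 to 7.30. *Phkg1* was 10.17 in treated replicate 2, with the others at 10.68 to 10.71. In treated replicate 1, *Pgk1* was 11.73 beside 11.88 to 11.91 and *Pgam2* was 12.36 beside 12.19 to 12.21. The last 2 lie in narrow groups: *Gpi1* was 12.70 in *mdx* replicate 4 beside 12.64 to 12.65, and *Gapdh* was 13.58 in treated replicate 1 with the other 3 at 13.60, where values are resolved to a hundredth.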

How the results depend on the processing

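All 22 called differences of the 33 genes kept their sign under every alternative in which the gene was tested. Of them, 8 passed the test with each mouse left out and 5 under all alternatives (*Eno1* for *mdx* minus C57, and *Pfkfb4*, *Fbp2*, *Gbe1* and *Ugp2* for treated minus C57). For the 33 genes and the further pathway genes, leaving out 1 mouse gave 3 to 8 and 5 to 13 calls for *mdx* minus C57 (6 and 7 with all mice), 0 to 12 and 1 to 19 for treated minus *mdx* (6 and 11) and 6 to 14 and 8 to 20 for treated minus C57 (10 and 14). The methods' t-test after adjustment gave 1 and 4, 0 and 0, and 4 and 9 calls. Over all 14494 probe sets it called 791, 88 and 1274. For treated minus *mdx*, 11 and 19 had an unadjusted p under 0.05 in that test, beside 25.1% of all tested. With the replicate number as a block, which the data did not show to pair mice, treated minus *mdx* gave 0 and 2 calls (10 and 16 at an unadjusted p under 0.05). Of all probe sets, 498 were called there. Treated minus C57 gave 6 for the 33 genes, beside 2332 of all probe sets, and the other counts stayed within 1.5 times. Fitting only the compared groups gave 1 and 4 for treated minus *mdx*. Array weights gave 15 of the further genes for *mdx* minus C57, 12 and 21 for treated minus *mdx*, 15 of the 33 genes and 27 of the further genes for treated minus C57. For array weights and the fit on the compared groups, calls over all probe sets are not given here. An unadjusted p under 0.01 with 1.5-fold gave 3 further genes for *mdx* minus C57, 3 and 4 for treated minus *mdx* and 8 further genes for treated minus C57, as did a minimum signal of 100. All other alternatives, unique probe sets included, stayed within 1.5 times. The cause of these changes was not tested. Scaling moved the median of all probe sets by at most 0.05.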
